A study of Mus musculus with 4 samples.

Results

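Of 181695 accessible regions in mouse blood stem cells, 2075 had their midpoint within 1 kb of an end of at least 2 different protein-coding genes, and these are described here. The regions were made by merging the narrow peaks of 4 libraries that overlapped by at least 1 bp. Of these, 180386 lay on the autosomes, X or Y, where 16398 were near an end of 1 gene and 161913 near none. Gene ends came from RefSeq on assembly GRCm38.p6 and served to choose the regions, so neither their strength nor a comparison of ages did.

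The study compared chromatin accessibility of long-term hematopoietic stem cells (LT-HSCs) between young and aged mice. ATAC-seq was used, in which the Tn5 transposase cuts open DNA and leaves sequencing adapters in it. Both groups were wild type (WT) mice of strain C57BL/6: 2 libraries came from mice of 4 to 5 months and 2 from mice of 20 to 22 months, each made from 25000 sorted LT-HSCs. The labels call them biological replicates, and neither the mice per library, their sex nor the antibodies of the sort are given in the sources used here, so p-values measure only the spread between these libraries.

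Genes are packed unevenly, and many pairs of neighbours start close together and are transcribed away from each other. Such a stretch is a divergent, or bidirectional, promoter. These promoters are usually rich in CpG, lack a TATA box and often serve housekeeping genes for metabolism, ribosomes, DNA repair and chromatin. NF-Y, which binds CCAAT, and ETS factors such as GABPA are known regulators of this class. Where 2 genes instead end side by side, or 1 ends where the next starts, only the starts are expected to be promoters.

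The stretches below lie between the starts of divergent pairs and are examples picked from the regions named in the text. All are written on the + strand of GRCm38.p6, from the RefSeq promoter table, so the first gene of each name runs to the left and the second to the right. Capitals mark every match, on either strand, to CCAAT (bound by NF-Y), to the GC box GGGCGG, to the ETS letters CCGGAAGT, to the NRF1 core GCGCATGC, to the YY1 core AAGATGGCG, to the cAMP response element TGACGTCA, to the E-box CACGTG and to the TATA box TATAAA. GC boxes can overlap one another.
Ostf1/Nmrk1, chr19:18631814-18632015, 202 bp: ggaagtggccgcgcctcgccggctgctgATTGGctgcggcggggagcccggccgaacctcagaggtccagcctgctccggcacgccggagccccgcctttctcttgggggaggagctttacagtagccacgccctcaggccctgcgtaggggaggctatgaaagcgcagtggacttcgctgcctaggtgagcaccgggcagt
H2ac15/H2bc15, chr13:21753913-21754075, 163 bp: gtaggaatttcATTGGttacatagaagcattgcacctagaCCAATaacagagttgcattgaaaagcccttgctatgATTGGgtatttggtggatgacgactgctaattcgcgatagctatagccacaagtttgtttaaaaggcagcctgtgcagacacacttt
Glyr1/Ubn1, chr16:5049939-5050056, 118 bp: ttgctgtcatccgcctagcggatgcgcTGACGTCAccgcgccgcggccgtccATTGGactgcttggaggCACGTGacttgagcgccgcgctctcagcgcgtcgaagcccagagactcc
Rpl36al/Mgat2, chr12:69184068-69184157, 90 bp: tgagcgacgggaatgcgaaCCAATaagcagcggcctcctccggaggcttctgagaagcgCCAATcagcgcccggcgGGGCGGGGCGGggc
Mrpl40/Hira, chr16:18876638-18876749, 112 bp: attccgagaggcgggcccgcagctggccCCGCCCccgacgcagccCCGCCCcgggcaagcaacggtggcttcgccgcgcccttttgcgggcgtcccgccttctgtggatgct
Ndufa8/Morn5, chr2:36049339-36049472, 134 bp: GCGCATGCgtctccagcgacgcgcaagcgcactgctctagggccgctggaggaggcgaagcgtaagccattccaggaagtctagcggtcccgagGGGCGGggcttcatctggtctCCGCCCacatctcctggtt
Atg2b/Gskip, chr12:105685298-105685351, 54 bp: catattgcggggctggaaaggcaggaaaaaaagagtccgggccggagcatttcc
Psmb9/Tap1, chr17:34187331-34187555, 225 bp: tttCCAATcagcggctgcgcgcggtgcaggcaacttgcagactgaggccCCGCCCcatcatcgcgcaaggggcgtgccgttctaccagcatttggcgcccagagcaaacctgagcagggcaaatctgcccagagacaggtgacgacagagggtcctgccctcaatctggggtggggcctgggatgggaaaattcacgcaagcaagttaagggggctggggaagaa
The first 7 belong to regions that were lower in aged cells, and Psmb9/Tap1 to one that was not in the authors' table. The histone pair H2ac15/H2bc15 holds 3 CCAAT boxes, the Rpl36al/Mgat2 stretch holds 2 CCAAT boxes beside 2 overlapping GC boxes, and Glyr1/Ubn1 holds a cAMP response element, a CCAAT box and an E-box. Mrpl40/Hira has GC boxes alone, Ndufa8/Morn5 has an NRF1 core and 2 GC boxes, and Atg2b/Gskip holds none of these letters. The promoter table held the stretch between the starts for 234 head-to-head regions. Of these, 64 had CCAAT, 97 a GC box and 5 a TATA box, so the picked examples do not stand for the usual shares.

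Sequencing depth is unknown, since the deposited lists hold no read counts, so the number of lists limits the precision. The narrow lists held 106186 to 133131 intervals. All 10 stem cell marker genes, among them Kit, Mecom and Hlf, had a region at an end in all 4 libraries. Of the markers of other cells, none of 3 T cell genes and none of 3 B cell genes had one in all 4, against 1 of 4 myeloid (Csf1r), 1 of 2 erythroid, 1 of 2 endothelial (Pecam1) and 1 of 5 genes from outside blood (Neurod1). Cd3e, Cd3g, Elane, Mpo, Alb, Myh6, Ins2 and Krt5 were among those with no region in any library. In bulk libraries a smaller share of cells with a site open and less opening per cell cannot be told apart.

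The regions at 2 or more gene ends were present in nearly every library. Of the 2075, 1762 (84.9%) had a peak in all 4 libraries, 51 in 3, 67 in 2 and 195 in 1. The share in all 4 was 75% of regions at 1 gene end, 38.5% of those at none and 42.4% of all. Young replicate 1 had a peak at 1857 of them, young replicate 2 at 1888, aged replicate 1 at 1872 and aged replicate 2 at 1913. The ages overlapped, with a mean of 1872.5 ± 21.9 (SD, n = 2) for young and of 1892.5 ± 29 (SD, n = 2) for aged mice. The difference of 20 gave p = 0.667 in an exact two-sided permutation test whose smallest possible p is 0.333.

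They were also strong and wide within each library. Strength was taken as the percentile rank of a peak's −log10 p among all peaks in the same library's list, since the authors computed fold enrichment and p per library. Where a region held several peaks of a library, the highest rank was used. The young replicates 1 and 2 had median ranks of 92.3 and 92.8, and the aged replicates 1 and 2 of 93.2 and 92.5. These ranks lay 7.12, 6.98, 7.51 and 7.82 points above those of regions at 1 gene end in the same order. The median peak width of 1176, 1103, 1125 and 1045 bp exceeded theirs by 145, 162, 159 and 166 bp. Rank and width were thus each higher in 4 of 4 libraries, by means of 7.36 points and 158 bp. An exact two-sided sign-flip test over 4 libraries cannot go below p = 0.125, which both reached (0.177 adjusted by Benjamini-Hochberg over 17 tests). Between ages, the median rank differed by 0.259 points and the median width by -54.5 bp (aged minus young), each with p = 0.667 in the exact permutation test. Median fold enrichment over each library's own background was 8.02 and 8.16 in young replicates 1 and 2, and 8.56 and 9.63 in aged replicates 1 and 2. Here the ages did not overlap, and the difference of 1.01 gave p = 0.333 in that exact test, the smallest possible (0.404 adjusted by Benjamini-Hochberg over 17 tests). Nor did they overlap at regions at 1 gene end, with 7.09, 7.13, 7.33 and 8.41 in the same order. Over all regions the medians were 4.89, 4.45, 4.60 and 5.27, where the ages overlapped. Aged replicate 2 was highest in each of these sets.

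The direction of transcription was given for 17491 of 21883 protein-coding genes, and for 3060 of the 3737 genes at these regions. Head-to-head pairs, whose starts face each other, made up 877 regions (42.3%), with a median of 37 bp between the starts and 322 pairs whose starts overlapped. Head-to-tail pairs made up 340 (16.4%) and tail-to-tail pairs 202 (9.73%). A further 61 held nested genes or a shared end, 40 held 3 or more genes, and in 555 (26.7%) the direction was not given for both.

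Strength went with the number of gene starts. Head-to-head regions were present in all 4 libraries in 848 of 877 cases (96.7%), head-to-tail in 86.8%, and tail-to-tail in 33.2%. Head-to-head regions had a median rank of 95 to 95.5 and a median width of 1216 to 1318 bp over the libraries. Against regions at 1 gene start, of which 9887 were counted, they ranked higher by 5.69, 5.29, 5.51 and 5.57 points and were wider by 190, 195, 208 and 212 bp. Head-to-tail regions did not share this: their mean difference from regions at 1 gene start was -0.507 points and -94 bp, negative in 4 of 4 libraries. Each of these 4 comparisons gave p = 0.125 in the exact sign-flip test, the smallest possible. Tail-to-tail regions had a mean difference of -5.44 points from regions at 1 gene tail, but aged replicate 1 went the other way at 1.33 (exact p = 0.25).

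The same order appeared when the annotation, and not the peaks, set the denominator. Of 896 head-to-head pairs with starts within 1 kb, 846 (94.4%) held a region in all 4 libraries whose midpoint was near both starts. The share was 290 of 506 (57.3%) for head-to-tail and 72 of 724 (9.94%) for tail-to-tail pairs. For genes without such a neighbour it was 7821 of 14071 starts (55.6%) and 1092 of 13829 tails (7.90%). A pair of facing starts was therefore occupied more often than a lone start, while a pair of tails was close to a lone tail. The units differ, since a pair holds more ends than a lone start or tail, and the shares were not adjusted for this. These are counts over the annotation, with no test.

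**Figure D1:**
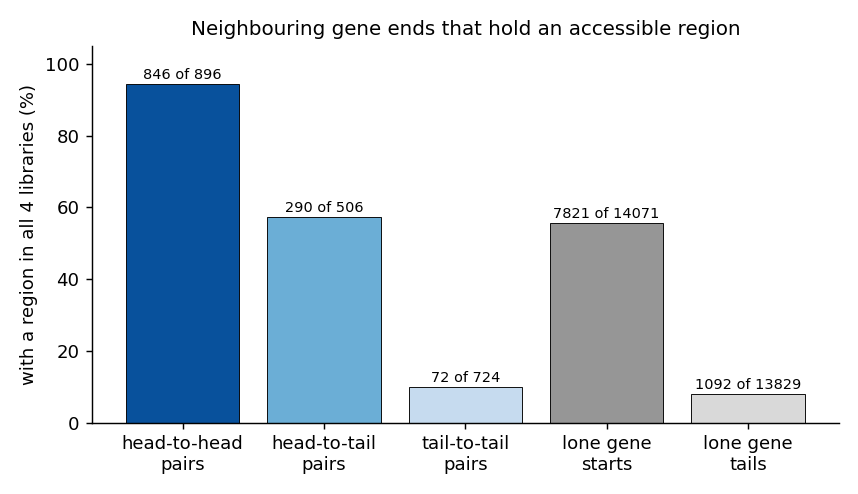
Share of neighbouring gene ends within 1 kb of each other, and of lone starts and tails, that held an accessible region in all 4 libraries (bars, in percent; the numbers above are pairs or ends). Head-to-head pairs stood at 94.4% and tail-to-tail pairs at 9.94%.

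Of the head-to-head pairs, 42 had no region near both starts. In 18 of these a region overlapped the stretch between the starts but was centred elsewhere, as at Stat5b/Stat5a, the cytokine signal transducers, and at Peg3/Usp29, an imprinted pair. The remaining 24 had none, and they include Zic4/Zic1, transcription factors of the developing nervous system, Tfpi2/Gngt1, and the olfactory receptors Olfr181/Olfr183. These examples were chosen after the list was seen.

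Within head-to-head regions with starts apart, the strongest summit lay near the middle. Its median distance from the centre between the starts was 88 and 90 bp in young and 77 and 82 bp in aged libraries. In 69.5% to 70.7% of regions it was within 150 bp, and in 34.0% to 38.8% it fell between the starts themselves. The rule already holds the midpoint close to both starts, so this is a description. Most head-to-head peaks had more than 1 summit: 74.6%, 78.6%, 77.5% and 84.8% in young replicates 1 and 2 and aged replicates 1 and 2, against 55.8% to 62.8% of peaks at 1 gene end. The latter include gene tails, and their median width was 879 to 1031 bp over the libraries, against 1216 to 1318 bp at head-to-head regions. The part of width in the number of summits was not tested.

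**Figure D2:**
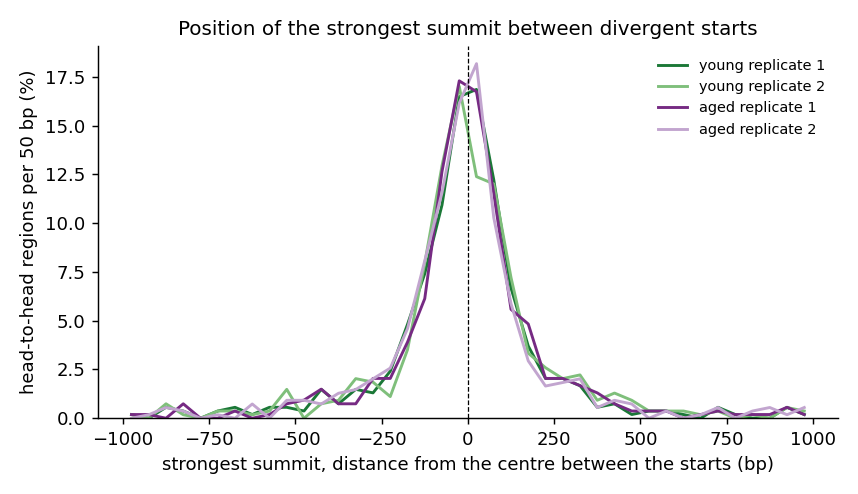
Distance of the strongest summit from the centre between divergent starts (x axis, bp) against the share of head-to-head regions in each 50 bp bin (y axis, percent), 1 line per library. The 4 lines peak at the centre, with 69.5% to 70.7% of summits within 150 bp.

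The promoters at head-to-head regions differed in letters from promoters in general. The windows were 250 bases before each start, for 1702 promoters at head-to-head regions, 8633 at regions with 1 gene start and 17491 in the whole table. Median GC content was 62.0%, against 59.2% and 55.2%, and the observed over expected CpG ratio was 0.82, against 0.67 and 0.54. The ETS letters were in 9.99% of them, 4.03% at 1 gene start and 3.82% of all, and the YY1 core in 2.88%, 0.591% and 0.675%. The GC box was in 60.2%, 56.6% and 42.7%, the NRF1 core in 4.70%, 3.89% and 2.97%, the cAMP response element in 3.29%, 2.42% and 1.98%, and the E-box in 8.75%, 8.0% and 6.65%. A TATA box was found in 4.29%, 7.71% and 12.4%, while CCAAT stood at similar shares in all sets, at 37.5%, 36.1% and 36.5%. Facing windows share bases where the starts are close, so these counts are not of independent stretches, and a match is not evidence of binding.

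The comparison of ages rests on the authors' deposited table of differing sites, made with DiffBind on narrow peaks and holding 4932 sites with an FDR up to 0.05. Of the 2075 regions, 456 (22.0%, exact 95% interval 20.2% to 23.8%) were listed in the authors' deposited table, and all 456 were lower in aged cells. Nearly the whole of the authors' deposited table runs this way, with 4900 of its 4927 sites on these chromosomes lower in aged, and the normalization behind its levels is not given in the sources used here. Counting regions found in 2 or more libraries, the share lower in aged was 24.3% here, 16.9% at 1 gene end and 4.33% over all. By the authors' deposited table, 0 of 2075 were higher in aged, which allows a share of up to 0.145% for counting error alone, against 0.0239% of all regions in 2 or more libraries. The authors' deposited table holds no sites beyond its FDR limit, so how many more would pass an unadjusted p is not known here, and no other tool could be run on it. A typical loss was small: the median log2 fold in the authors' deposited table was -0.36, with quartiles of -0.40 and -0.32 and a range of -1.15 to -0.23. The median level (log2 mean normalized reads) was 9.59 in young and 9.24 in aged cells in the authors' deposited table.

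**Figure D3:**
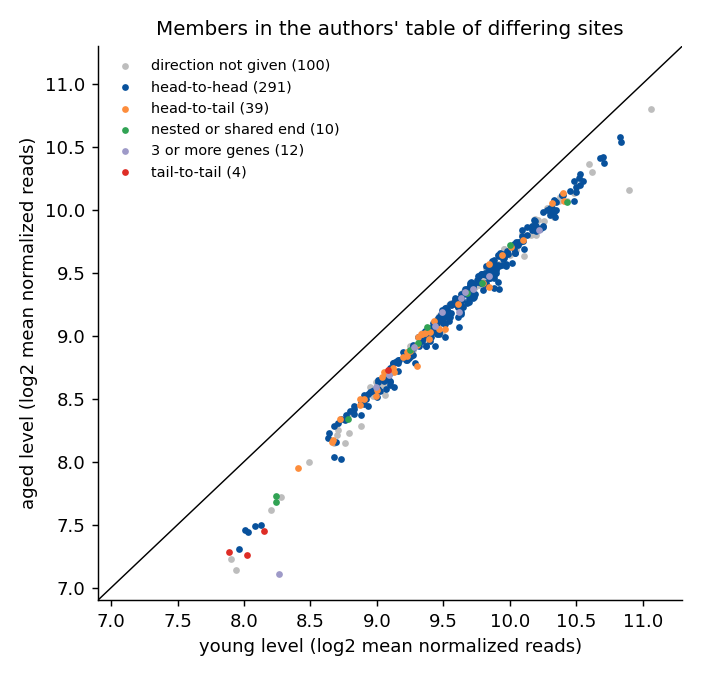
Level in aged against level in young libraries (both axes log2 mean normalized reads, the authors' values) for the 456 listed regions at 2 or more gene ends. All points lie below the line of equality, most of them close to it, as the median log2 change of -0.36 describes.

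The orientation of the pair went with the listed share. Of 877 head-to-head regions, the authors' deposited table listed 291 (33.2%, exact 95% interval 30.1% to 36.4%), against 39 of 340 head-to-tail (11.5%) and 4 of 202 tail-to-tail regions (1.98%). Regions at 1 gene start were listed in 18.3% and at 1 gene tail in 1.47%. The share was 41.4% where starts lay over 250 bp apart (111 regions), 32.9% where they lay closer (444 regions) and 30.7% where they overlapped. The share also went with strength and width, whose part in it was not tested: listed regions had a median width of 1617 bp and the others 1108 bp. In the band of the 2% strongest of all regions, 33.5% of regions at 2 or more gene ends and 33.4% at 1 gene end were listed. Head-to-head regions stood at 35.2% (30% to 40.7%) there, against 32.3% (30.1% to 34.6%) of regions at 1 gene start, so the intervals overlapped. In the next band, 2% to 5%, the shares were 38.8% (33.3% to 44.5%) and 29.9% (27.9% to 31.9%), with median widths of 1557 and 1411 bp. From 5% to 10% they were 31.4% (24.2% to 39.3%) and 20.3% (18.4% to 22.2%), with 1438 and 1370 bp. The exact intervals did not overlap in these bands, while from 10% to 20% the shares were 20.5% (9.8% to 35.3%) and 13.6% (11.8% to 15.6%). All listings come from the same comparison of 2 against 2 libraries, and regions are not replicates of an age. The intervals thus measure counting error over regions and no spread between libraries.

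**Figure D4:**
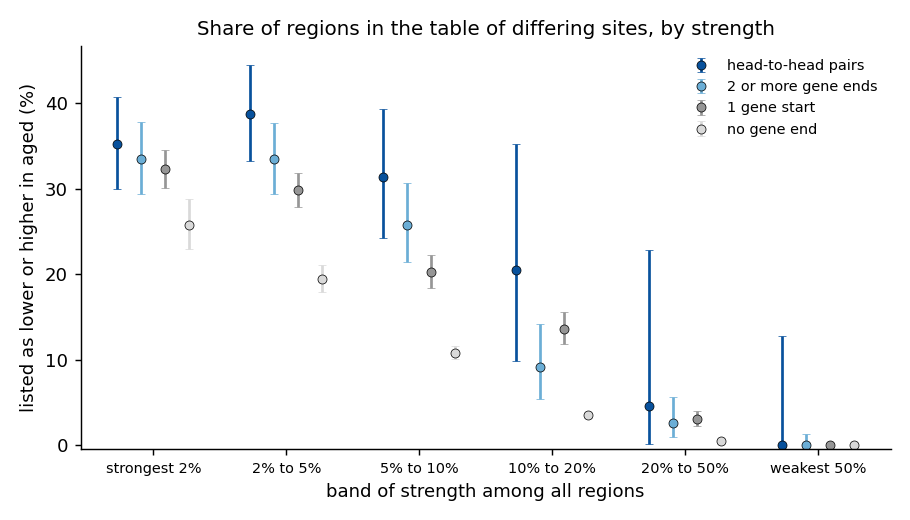
Share of regions listed in the authors' table of differing sites (y axis, percent, with exact 95% binomial intervals) in bands of strength among all regions (x axis), for kinds of region. In the band from 2% to 5% head-to-head regions stood at 38.8% and regions at 1 gene start at 29.9%.

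At the limit of the distance rule, 159 regions had their second gene end 900 to 1000 bp away, just inside, and the authors' deposited table listed 8.18% of them. Just outside, from 1000 to 1100 bp, there were 128, of which 11.7% were listed. Where both ends lay within 250 bp, 29.4% of 703 were.

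The lowest FDR belonged to a region with the ends of 24 genes on chromosome 18, 37841261 to 37843198: the protocadherin gamma cluster, cell adhesion genes such as Pcdhga9 and Pcdhgc3 that share their last exons and so their 3′ end. Its level was 8.26 in young and 7.11 in aged cells in the authors' deposited table (log2 change -1.15, FDR 3.56e-05). This region was of middling strength, with fold enrichments over background of 3.1 and 3.7 in the young and of 3.3 and 5.5 in the aged libraries. It is a place where many genes end and not a divergent promoter, and it counts once among regions but as 24 in counts of genes.

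The next was the promoter of Ostf1, an SH3 adaptor protein, and Nmrk1, a kinase that makes NAD from nicotinamide riboside (chromosome 19, 18630278 to 18632401). Its fold enrichment was 7.5 and 8.1 in young replicates 1 and 2, and 8.9 and 10.4 in aged replicates 1 and 2. In the authors' deposited table the level fell from 9.92 to 9.37 (log2 change -0.55, FDR 8.16e-05). Fold enrichment, each library's signal over its own background, was thus higher in both aged libraries while the normalized level was lower. The same held widely: among the 456 listed regions, all in 4 libraries, both aged fold enrichments lay above both young ones in 287 (62.9%) and below in 4. For members not listed these shares were 41.5% and 4.06%, and for all regions in 4 libraries 30.3% and 8.07%. By percentile rank, both aged values lay above both young ones in 89 of the 456 (19.5%) and below in 78 (17.1%). Fold enrichments and ranks from lists of different libraries show no change in themselves.

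At H2ac15/H2bc15, histone genes for H2A and H2B (chromosome 13, 21753136 to 21754988), both young libraries had a fold enrichment of 5.7, and the aged ones of 6.3 and 7.5. The authors' deposited table gave it levels of 9.88 and 9.38 (log2 change -0.50, FDR 0.000859). At Glyr1/Ubn1, a nucleosome-binding cofactor of histone demethylation and a subunit of the HIRA complex that deposits histone H3.3, enrichments were 7.3, 7.9, 10 and 9.0. Glyr1/Ubn1 in the authors' deposited table went from 10.02 to 9.58 (log2 change -0.45, FDR 0.00101). HIRA itself shares a promoter with Mrpl40, a mitochondrial ribosomal protein named from that gene list, and the authors' deposited table gave Mrpl40/Hira levels of 10.25 and 9.87 (log2 change -0.38, FDR 0.00346).

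Other pairs with the smallest FDR served varied tasks. Atg2b, which moves lipid into growing autophagosomes, and Gskip, which binds the kinase GSK3, had enrichments of 7.8, 7.3, 9.1 and 10.2. The authors' deposited table gave Atg2b/Gskip a log2 change of -0.49 (FDR 0.000859). Ccnk/Setd3, the cyclin partner of transcription kinases and an actin methyltransferase, had enrichments of 5.6, 5.6, 6.8 and 8.9, and a log2 change of -0.41 (FDR 0.00112) in the authors' deposited table. Both regions were high in each library and the enrichments of the ages did not overlap. Gdap2/Wdr3, the latter a factor of small ribosomal subunit assembly, had enrichments of 9.6, 9.5, 11.6 and 13.5, and fell by 0.52 on the log2 scale in the authors' deposited table (FDR 0.0017). Poglut2/Bivm, the former a glucosyltransferase of the secretory pathway, fell by 0.43 (FDR 0.00141) in the authors' deposited table. Fbh1/Ankrd16, the former a DNA helicase of recombination, fell by 0.39 (FDR 0.00183) in the authors' deposited table. AW554918/Tpgs2, the latter a subunit of tubulin polyglutamylase, fell by 0.48 (FDR 0.000832) in the authors' deposited table.

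**Figure D5:**
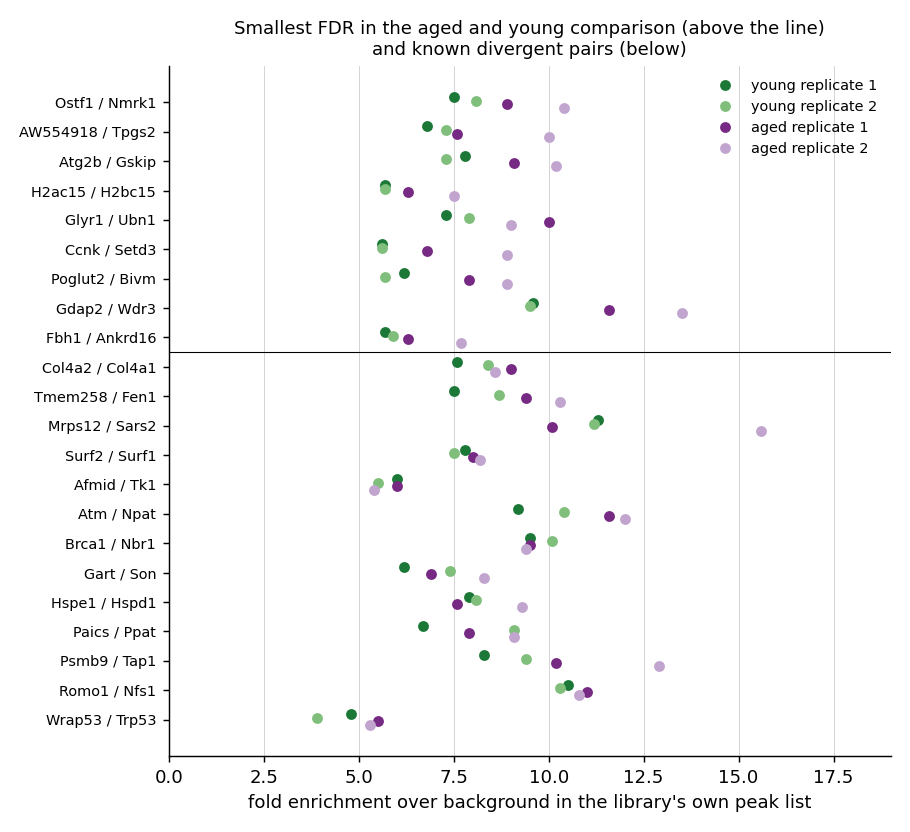
Fold enrichment over each library's own background (x axis) at 9 of the 10 regions with the smallest FDR (above the line; the protocadherin cluster is left out) and at the known divergent pairs of 2 genes with both directions given (below), 1 point per library. At the 9 upper pairs both aged libraries lie to the right of both young ones, although the authors' levels were lower in aged cells.

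Among the strongest regions, some were listed and some were not. Smyd4/Rpa1, the latter the large subunit of the single-stranded DNA binding protein RPA, had enrichments of 13.1, 13.8, 14.8 and 13.4 and was not in the authors' deposited table. Ltn1/Rwdd2b, the former a ligase of ribosome quality control, had enrichments of 10.9, 12.2, 13.8 and 17 and a log2 change of -0.41 (FDR 0.0131) in the authors' deposited table. Erp44/Invs, an endoplasmic reticulum chaperone and a ciliary protein, had a log2 change of -0.32 (FDR 0.03), and Zcrb1/Pphln1 of -0.46 (FDR 0.00531), in the authors' deposited table. Widest of all were H2ac24/H4bc24 at 3893 bp, H2bc23/H2ac23 at 3844 bp and Gm38469/Arid2 at 3778 bp. Arid2 encodes a subunit of a SWI/SNF remodeller, and of these 3 only its region was in the authors' deposited table (log2 change -0.25, FDR 0.0184).

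All 16 pairs known as divergent neighbours were found, each in all 4 libraries, as were 96.7% of all head-to-head regions. They include Hspd1/Hspe1, the mitochondrial chaperonin and its co-chaperonin, Atm/Npat, a DNA damage kinase and a coactivator of histone genes, and Tap1/Psmb9, which make and transport peptides for antigen presentation. Atm/Npat had enrichments of 9.2, 10.4, 11.6 and 12.0, Hspe1/Hspd1 of 7.9, 8.1, 7.6 and 9.3, and Psmb9/Tap1 of 8.3, 9.4, 10.2 and 12.9. None of these 3 was in the authors' deposited table. At 5 of the 16 pairs the authors' deposited table gave a lower level in aged cells, beside 33.2% of all head-to-head regions. Col4a2/Col4a1, the collagens of basement membrane, had a log2 change of -0.45 (FDR 0.00709), and Mcm4/Prkdc, a subunit of the replicative helicase and a kinase of end joining, of -0.34 (FDR 0.0159), in the authors' deposited table. Tmem258/Fen1, the latter the flap nuclease of lagging-strand synthesis, had -0.36 (FDR 0.0306), Mrps12/Sars2 of mitochondrial translation -0.37 (FDR 0.0324), and Surf2/Surf1, the latter an assembly factor of cytochrome oxidase, -0.55 (FDR 0.0486), in the authors' deposited table. The other 11 were not listed, among them Gart/Son, Paics/Ppat and Romo1/Nfs1. The weakest were Wrap53/Trp53, with enrichments of 4.8, 3.9, 5.5 and 5.3, and Afmid/Tk1, with 6.0, 5.5, 6.0 and 5.4.

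Groups of genes differed in how often they sat at these regions, beside 3737 of 21883 protein-coding genes (17.1%) in all. Replication-dependent histones did so in 46 of 67 (68.7%), mitochondrial ribosomal proteins in 38 of 78 (48.7%), DNA repair genes in 38 of 79 (48.1%), chaperonins and heat shock proteins in 16 of 35 (45.7%) and the respiratory chain in 44 of 100 (44.0%). The share was 12 of 37 (32.4%) for replication, 24 of 85 (28.2%) for cytosolic ribosomal proteins and 11 of 40 (27.5%) for the proteasome. Hox genes had 6 of 39 (15.4%), olfactory receptors 1 of 1110 and keratins 0 of 53. These are counts with no test, and histone and Hox genes lie in dense clusters, where neighbours are close by arrangement.

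Among genes at these regions, 940 of 3737 (25.2%) were at one listed in the authors' deposited table. These counts are of genes, so every gene of the protocadherin region is in the 940. Likewise, both histone genes of a pair such as H2ac15/H2bc15 count for the same listed region. Genes of a list are therefore not independent, least of all the histones, and no test was made. The share was 31 of 46 (67.4%) for histones, 15 of 38 (39.5%) for DNA repair, 17 of 44 (38.6%) for the respiratory chain, 5 of 16 (31.2%) for chaperonins, 10 of 38 (26.3%) for mitochondrial ribosomal proteins, 6 of 24 (25%) for cytosolic ones, 3 of 12 (25%) for replication, 2 of 11 (18.2%) for the proteasome and 0 of 6 for Hox genes, by the authors' deposited table. The ribosomal and replication shares were thus close to that of all genes at these regions, and the median log2 fold per list in the authors' deposited table ran from -0.40 (histones, chaperonins) to -0.34 (replication, DNA repair). Of the histones, H2ac12/H2bc12 had enrichments of 7.5, 6.0, 6.8 and 10.2, levels of 9.62 and 9.07, and a log2 change of -0.54 (FDR 0.00433) in the authors' deposited table. Of the respiratory chain, Ndufb1/Cpsf2, a complex I subunit beside an mRNA 3′ processing factor, had -0.41 (FDR 0.0055), and Ndufa8/Morn5, another complex I subunit, -0.49 (FDR 0.0098), in the authors' deposited table. Gabpa/Atp5j pairs the ETS factor GABPA with an ATP synthase subunit, and its log2 fold in the authors' deposited table was -0.31 (FDR 0.0142). Of DNA repair, Recql/Golt1b, a helicase gene beside a Golgi protein, had -0.42 (FDR 0.00518), and Tkfc/Ddb1, of damage recognition, -0.42 (FDR 0.0127), in the authors' deposited table. Chaperonin subunits stood at Cct6a/Psph with -0.42 (FDR 0.00939), Zfp830/Cct6b with -0.51 (FDR 0.0104) and Cct5/Atpsckmt with -0.35 (FDR 0.0119) in the authors' deposited table.

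Ribosomal protein genes gave similar sizes. Rpl36al/Mgat2, the latter an enzyme of N-glycan branching, had enrichments of 8.2, 8.5, 8.9 and 9.7 and a log2 change of -0.41 (FDR 0.00555) in the authors' deposited table. Rpl7/Rdh10 had -0.32 (FDR 0.0119) and Rpl15/Nkiras1 -0.36 (FDR 0.0122) in the authors' deposited table. The mitochondrial Mrpl57/Ska3 and Mrpl50/Zfp189 had -0.42 (FDR 0.0152) and -0.39 (FDR 0.0173) in the authors' deposited table. Replication contributed Pxmp2/Pole, the leading-strand polymerase, at -0.38 (FDR 0.0139) and Ufd1/Cdc45, of the replicative helicase, at -0.29 (FDR 0.0476), and the proteasome Psma7/Ss18l1 at -0.37 (FDR 0.00744) and Dnajc2/Psmc2 at -0.37 (FDR 0.0289), in the authors' deposited table.

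CCAAT was more frequent at listed than at other head-to-head regions. Of the 291 that the authors' deposited table lists, 173 (59.5%, exact 95% interval 53.6% to 65.1%) had it in at least 1 of the promoter windows, against 261 of 586 not listed (44.5%, 40.5% to 48.7%). Without histone genes the shares were 58.3% and 44.3%. Among the 5% strongest regions without histones they were 58.8% and 46.5%, with median widths of 1610 and 1376 bp. At regions with 1 gene start, without histones, the shares were 38.5% (36.3% to 40.8%) and 35.3% (34.2% to 36.3%) over all. Among the 5% strongest of these they were 42.2% and 42.7%. A region with 1 gene start has 1 window and a head-to-head region has a window for each gene, so their shares are not on the same footing. Counted per promoter window, CCAAT was in 46.0% at listed and 33.0% at other head-to-head regions. In the same order the GC box was in 58.4% and 61.2%, the ETS letters in 9.62% and 10.2%, and the NRF1 core in 4.47% and 4.82%. The YY1 core was in 2.41% and 3.12%, and the cAMP response element in 3.09% and 3.39%. The E-box was in 8.76% and 8.75%, and the TATA box in 5.15% and 3.84%. These motifs were searched with the results for the ages known, and no test was made.

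Few regions at 2 or more gene ends belonged to 1 age alone. A peak in both aged and neither young library was found at 13 (0.627%), against 2.91% of all regions, and in both young and neither aged at 17 (0.819%), against 1.63%. Tail-to-tail pairs made up 5 of the 13 and 8 of the 17, and none of the 30 was in the authors' deposited table. They were weak: the highest percentile rank of any was 65.7 among the aged and 51.7 among the young. Ordered by the lower −log10 p of the 2 libraries, the first in the aged libraries was at Mink1/Chrne, a kinase and a subunit of the muscle acetylcholine receptor, with enrichments of 3.1 and 5.5. It was followed by Spidr/Cebpd, Msl2/Ppp2r3a, Nhlrc4/Pigq and Igfals/Nubp2. By the same order in the young libraries, Herc4/Sirt1, where the gene of the deacetylase SIRT1 ends, had 4.6 and 4.1, followed by Lypd10/Lypd11, Prss53/Zfp646, Shisa5/Trex1 and Ddx17/Kdelr3. The peak lists give no level for these regions in the other age.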

How the data were processed

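ATAC-seq libraries of sorted LT-HSCs, 2 young and 2 aged, were compared. Per the submitters' processing notes, FastQC 0.11.9, BWA 0.7.17, MACS2 2.1.2 and DiffBind 2.14.0 were used with GRCm38; read shifting, duplicate removal and blacklists are not given in the sources used here. The authors deposited a narrow and a broad peak list per library, with fold enrichment as a ratio, −log10 p and −log10 q per peak. They also deposited 2 tables of differing sites, with levels and fold on the log2 scale and a p-value and FDR per site. The deposited files hold no read counts.

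Narrow intervals were merged by at least 1 bp with 1 entry per distinct interval, and all sites of the narrow table matched a merged region. Members were regions whose midpoint was within 1000 bp of an end of at least 2 protein-coding genes of RefSeq (GRCm38.p6). Direction and promoter letters came from the RefSeq promoter table, 250 bases before each start. Libraries were compared with exact permutation and sign-flip tests, checked on fixed inputs with known answers. Merging and pair directions were tested on simulated peaks and genes. Intervals on shares are exact Clopper-Pearson at 95%, treat regions as independent and hold no spread between libraries. The members, gene lists and motifs were chosen with earlier results of these data known. The text names the 10 members with the smallest FDR, the 5 strongest, the 3 widest, up to 5 present in 1 age alone, the known pairs, and up to 3 listed members per gene list, except a few that are not reported here. Alternatives varied the distance, peaks, FDR, table, chromosomes and libraries. Merging was checked with bedtools 2.31.1, and calculations used scipy 1.17.1, pandas 2.3.3 and numpy 2.4.6 under Python 3.11.15, with matplotlib 3.10.9 for plots.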

Additional observations from a re-analysis of the deposited data

How the results depend on the processing

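The differences between regions at 2 or more and at 1 gene end kept their direction under all 9 alternatives tried for rank and all 9 for width, and the median width was lower in aged libraries under all 10. No difference between ages could pass a threshold with 2 against 2 libraries. The number with a peak, 20 higher in aged libraries, was -12 with the 50000 strongest peaks of every library, 72 at 2 kb and 99.5 with the broad peak lists (exact p = 0.333, the smallest possible), and ranged from -2.5 (without aged replicate 2) to 44.5 when a library was left out. The rank difference of 0.259 ranged from -0.0892 (without aged replicate 1) to 0.637 with a library left out, and was 1.81 when ranked by fold enrichment and 0.052 at 2 kb. The share listed in the authors' deposited table, 22.0%, was 15.1% with a distance of 2 kb, 26.7% with 500 bp and 20.2% with any overlap. It was 4.82% at an FDR under 0.01 and 4.87% with the broad table. The share at 1 gene end, 14.3%, moved too, to 11.2%, 16.3%, 13.9%, 2.73% and 3.56% in the same order. At 2 or more gene ends the share was 29.7% among the strongest regions, as many as FDR and p imply were tested (25.4% at 1 gene end there). For head-to-head pairs alone, added after seeing the data, it was 33.2%. The median log2 fold was -0.41 both at an FDR under 0.01 and in the broad table. Regions in aged libraries alone, 13, numbered 49 at 2 kb, 5 at 500 bp and 8 with the 50000 strongest peaks, and 26 to 91 with a library left out, highest without aged replicate 1. Those in young libraries alone, 17, numbered 36 at 2 kb, 4 at 500 bp, 28 with at least 50% of the region covered and 9 with q under 0.05, and 27 to 71 with a library left out, highest without young replicate 1. Fewer libraries make these counts easier to meet by construction, and for the other changes the cause was not tested. With the replicate number as a block, the differences of 20 regions, -54.5 bp and 0.259 points gave exact sign-flip p of 0.5, 0.5 and 1. The labels do not say what the replicate number marks. Deviations of log2 fold enrichment in young replicate 1 and aged replicate 1 had a correlation of -0.056 over 1762 regions. With so few libraries this cannot show whether the numbers mark a real pairing. Depth is unknown, and no site could be tested again, since levels are given per age only.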

Other observations

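Of the 1325 sites in the authors' deposited broad table, 98 overlapped a region at 2 or more gene ends, and all 98 were lower in aged cells, with a median log2 fold of -0.41. By that broad table, 4.87% of regions at 2 or more gene ends were listed, against 3.56% at 1 gene end. The direction over all 1325 sites is not given here, so the shared direction is no result about these regions alone. The 4 tail-to-tail regions of the authors' deposited narrow table, named here after their values were seen, were at Ccdc65/Fkbp11 (log2 fold -0.60), Clcn2/Fam131a (-0.70), Dnajc3/Uggt2 (-0.36) and Gys1/Ftl1 (-0.76). Fkbp11, Dnajc3 and Uggt2 encode folding factors of the endoplasmic reticulum, Gys1 makes glycogen and Ftl1 is the light chain of ferritin. Of Hox genes, Hoxa5/Hoxa6 and Hoxb8/Hoxb7, transcription factors of body patterning that are also active in stem cells, had a region in all 4 libraries, and neither was in the authors' deposited table.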
